A study of Gallus gallus with 8 samples.

Results

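The genes described here encode the integrins, the laminins and the matrix proteins that cells attach to through them. They were chosen by name: every integrin alpha and beta chain and every laminin chain named on the array, with the nidogens, perlecan (HSPG2), agrin, fibronectin, tenascin-C, vitronectin, SPARC, the fibrillins and the fibulins. The rule found 42 genes on 107 probe sets, out of 13009 named genes and 38439 probe sets, and 30 of the 42 had more than 1 probe set. ITGA5 and ITGB8 belong to the same families and were not analysed here, since no probe set carries their symbols.

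Integrins are receptors built from an alpha and a beta chain that span the plasma membrane and tie the cytoskeleton to the matrix outside. The alpha chain largely sets the ligand: some pairs bind laminins, some collagens, and some the RGD sequence of fibronectin and vitronectin. Laminins are trimers of an alpha, a beta and a gamma chain that polymerise into the sheet of the basement membrane, where nidogens and perlecan link them to collagen IV. Embryonic ectoderm, from which the cranial placodes form, rests on such a sheet, with mesenchyme below it.

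The series asked which genes mark the chick otic placode and which of these FGF can induce. Otic placode ectoderm and the ectoderm lateral to it at the same axial level, both freshly dissected at stage 10, were compared with each other. Presumptive trigeminal ectoderm taken at stage 8 was embedded in collagen gel for 18 h in defined medium with 50 ng/ml FGF2 or with no FGF2 (0 ng/ml). All embryos were unmanipulated chick embryos, the ectoderm was freed with dispase and cleaned by hand, and each array received the amplified RNA of many pooled pieces. There were 2 Affymetrix chicken arrays in each group, 8 in all. The paper counts its pieces of ectoderm per replicate, which reads as a pool for each array. Nothing in the labels says that the pools of a group came from separate experiments. The p-values then measure only the spread between these pools and arrays, which may be partly technical.

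The deposited value is a linear intensity for each probe set and array. The array medians lay between 25.6 and 31.7, and no detection call accompanies the values, so that the median serves here as a rough guide to what is bright. Of the 42 genes, 28 were above the array median on all 8 arrays, 5 (FBLN5, ITGB2, ITGB6, LAMA3 and LAMC3) on none, and 9 on some. Each gene is described on its brightest probe set, and levels are compared only within a probe set. A gene is said to pass both limits in limma where its fold exceeds 2 and its p, before adjustment, is under 0.05. Adjustment was by Benjamini-Hochberg across every probe set tested. In all, 13 of the 42 genes passed both limits in at least 1 of 3 comparisons. The share of all genes that did so was not counted. In the single comparisons, the shares of all genes were 7.50% (otic over lateral), 3.62% (FGF2 over no FGF2) and 9.64% (cultured over fresh).

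The otic pools carried otic markers and all pools surface ectoderm markers, together with genes listed here as markers of other tissues. No list was made for trigeminal or for lateral ectoderm. EPCAM, an epithelial adhesion protein, was bright on every array, between 8326 and 11290.3, and made most of each surface ectoderm sum. Of the 7 surface ectoderm genes, 0 were higher and 1 was lower in otic than in lateral ectoderm at both limits. That gene was GRHL3, at 26.8 and 27.8 in the otic pools, against 81.8 and 265 in the lateral pools. GATA2 was below the array median on every array, at 4.0 to 18.6. All 7 otic markers were higher in otic than in lateral ectoderm at both limits. Their sums were 9879 and 11816 in the otic pools and 489 and 657 in the lateral pools. The trigeminal cultures were not free of them, at 4114 and 4897 with FGF2 and 4024 and 3939 without FGF2. SOHO1 alone gave 1818 and 2202 with FGF2 and 3410.1 and 3247 without FGF2, against 107 and 339.8 in the otic pools. Of the 7 otic markers, 3 were higher with FGF2 at both limits and 0 were lower, where 2.14% and 1.48% of all genes were. They were GBX2, EYA2 and PAX2 (log2 2.96, 2.29 and 2.04), and the list median was 0.92. The summed intensity of 13 endothelial and blood genes was 446 to 698 on the trigeminal arrays, 2504 and 2965 in the otic pools, and 5041 and 6805 in the lateral pools. That of 11 mesoderm and mesenchyme genes was 1758 to 3018 on the trigeminal arrays, 2565 and 4867 in the otic pools, and 7034 and 8778 in the lateral pools. Neural crest genes (6) summed to 4013 to 5896 on the trigeminal arrays, against 691 to 1594 on the fresh ones. In dissected tissue, fewer cells of a type cannot be told apart from less RNA per cell.

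**Figure D1:**
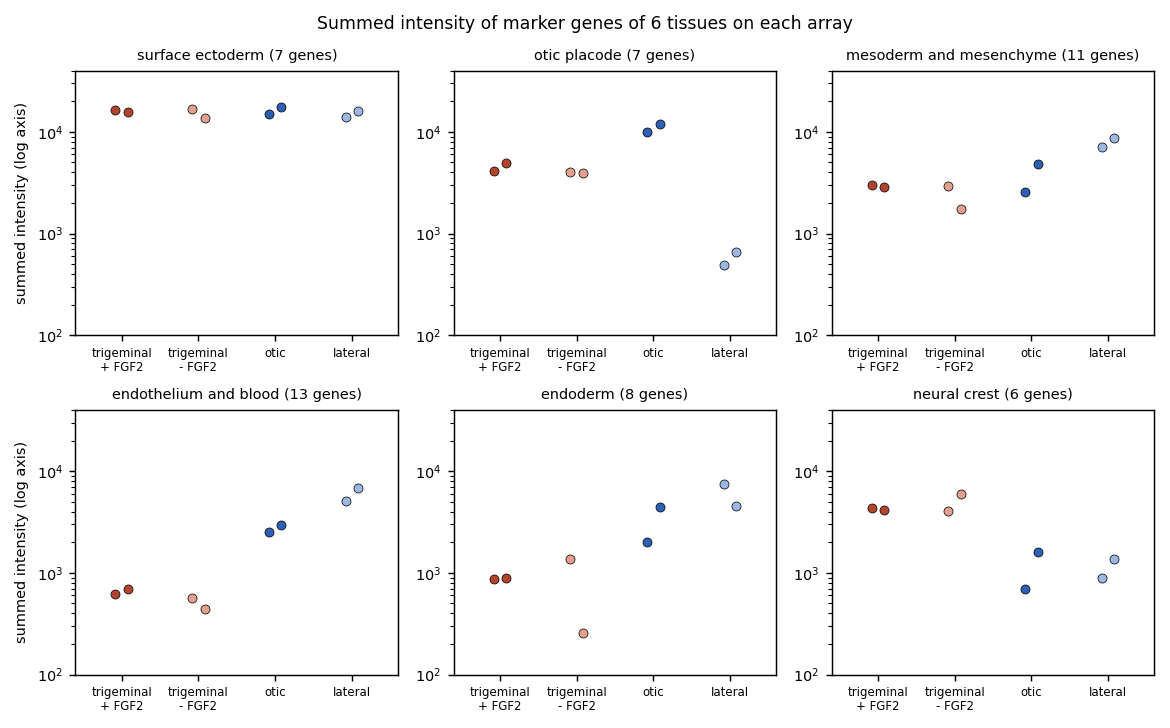
Summed intensity of the marker genes of each tissue except the neural tube, which is not drawn (log axis), on each of the 8 arrays, by group. Endothelial and blood genes summed to 446 to 698 in cultured trigeminal ectoderm and to 2504 to 6805 in fresh ectoderm, while the sums of surface ectoderm genes lay between 13537 and 17419 on all arrays.

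Between otic and lateral ectoderm, the integrin chain ITGB3 was higher in otic ectoderm, and the laminin chains LAMA2 and LAMB3 and the fibrillin FBN2 were lower. These 4 genes of 42 (9.52%) passed both limits, 1 higher and 3 lower. Among all 13009 genes 7.50% passed, 4.86% higher and 2.64% lower. None of the 42, and none of all genes, reached an adjusted p under 0.05 with limma, while 4 of the 42, and 8.11% of all genes, had an unadjusted p under 0.05. The median log2 difference of the 42 was −0.12, against 0.19 over all genes, and 11 of the 42 lay above the median of all genes. Both otic arrays were above both lateral arrays for 6 of the 42 and below them for another 6, while the shares of all genes were 26.5% and 11.2%. The median distance from the median of all genes was 0.56 for the 42 and 0.37 for all genes, in log2 units.

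**Figure D2:**
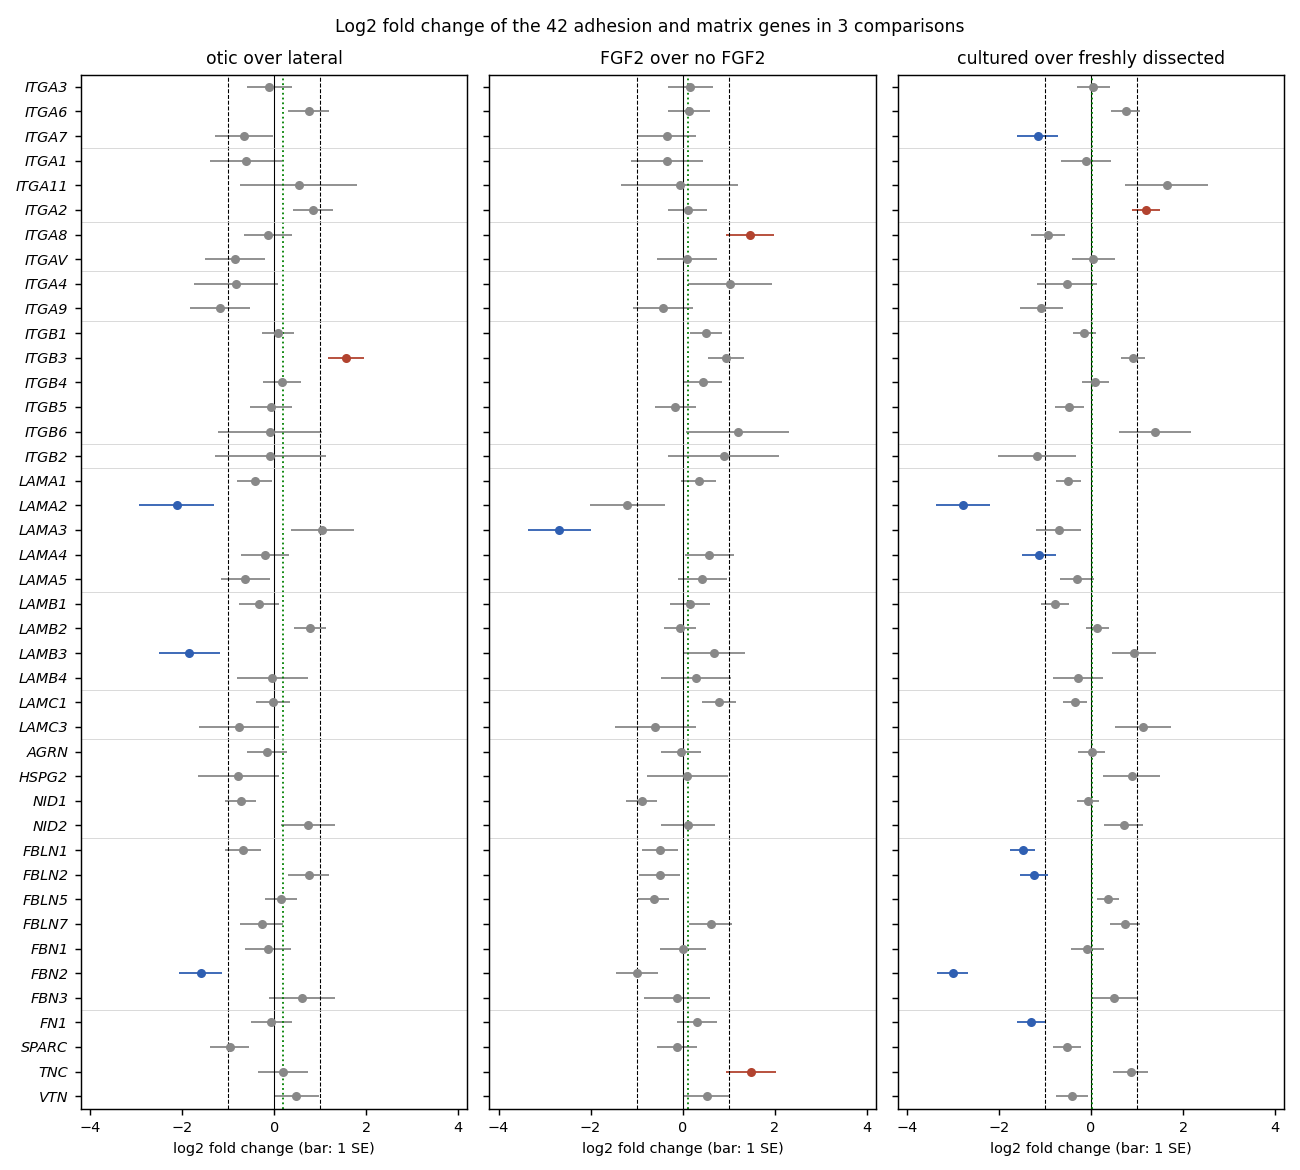
Log2 fold change of each of the 42 genes with 1 standard error, in the 3 comparisons, grouped by role. Dashed lines mark a 2-fold difference and the dotted line the median of all genes, and genes past both limits are coloured by direction. The longest departures are those of FBN2 and LAMA2 in cultured over fresh ectoderm, −3.01 and −2.78.

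ITGB3, the beta chain that pairs with alpha V in the vitronectin receptor, had values of 1004 and 1682 in the otic pools, against 392 and 487 in the lateral pools. The groups did not overlap, and the log2 change was 1.57 ± 0.39 (SE, 2 arrays per group; adjusted p = 0.36). ITGB3 passed both limits with each array left out in turn (1.20 to 1.94) but not as the mean of its 3 probe sets (0.76), whose own differences ran from −0.28 to 1.57. Some genes of the neural tube and neural crest lists were higher in otic ectoderm as well. The paper counts HES5 among its otic-enriched genes, so these lists do not mark neural tissue alone. Of 8 neural tube genes 2 passed both limits (HES5 and SOX3, log2 2.49 and 2.33), at a list median of 1.15. The neural tube sums were 1576 and 2684 in the otic pools, against 390.2 and 589.7 in the lateral pools. Most of each came from SOX3, at 1217 and 2497 in the otic pools and 284 and 420.1 in the lateral pools. Of 6 neural crest genes 2 passed (SOX10 and TFAP2B, log2 2.29 and 1.23), but the list median was −0.04. FOXD3, SNAI2, SOX9 and ETS1 gave −1.47, −0.44, −0.04 and −0.03. The neural crest sums overlapped, at 691 and 1594 in the otic pools and 896 and 1366 in the lateral pools. The part of these markers in the ITGB3 value was not tested. Its partner ITGAV, which binds RGD ligands, gave 34.6 and 131 in the otic pools and 104 and 141 in the lateral pools, with overlapping groups. The other RGD-binding chain measured, ITGA8, a receptor for nephronectin in kidney, gave 30.7 and 43.5 in the otic pools and 28.5 and 56.2 in the lateral pools.

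ITGB1, the beta chain that most of the alpha chains share, differed little between these tissues. It had 3424 and 4859.6 in the otic pools and 3557 and 4200.5 in the lateral pools, a log2 difference of 0.08 (95% interval −0.77 to 0.93). That interval reaches almost to a 2-fold difference, and the sign turned to −0.09 after quantile normalization, −0.11 after median centring, and −0.17 and −0.04 without otic replicate 2 and without lateral replicate 1. Of the laminin-binding alpha chains, ITGA6 had 415 and 911 in the otic pools, against 335 and 398 in the lateral pools. The groups did not overlap, but the log2 difference of 0.75 ± 0.45 passed neither limit, and it was 1.32, past both, without otic replicate 1. ITGA3 gave 182 and 452 in the otic pools and 304 and 313 in the lateral pools, and ITGA7, best known from muscle, 52.2 and 104 in the otic pools and 99.7 and 136 in the lateral pools. Both overlapped between the tissues.

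Of the collagen-binding chains, ITGA2 alone was above the array median on all arrays, at 61.4 and 73.2 in the otic pools and 30.4 and 46.4 in the lateral pools, a log2 difference of 0.84 ± 0.43 that passed neither limit. ITGA1 (10.8 and 50.4 in the otic pools, 39.2 and 33.0 in the lateral pools) and ITGA11 (46.1 and 5.7 in the otic pools, 33.1 and 3.8 in the lateral pools) varied more between replicates than between tissues. ITGA4 and ITGA9, which bind fibronectin and tenascin among other ligands, were also spread widely. ITGA4 gave 315 and 2346 in the otic pools and 1299 and 1794 in the lateral pools, and ITGA9 gave 85.0 and 259 in the otic pools and 237 and 476 in the lateral pools. ITGB2, the beta chain of leukocytes, stayed below the array median on every array, at 4.2 and 21.9 in the otic pools and 21.4 and 4.8 in the lateral pools. In the trigeminal cultures it gave 2.5 and 14.0 with FGF2 and 3.9 and 2.6 without FGF2.

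Of the laminin alpha chains, 1 of 5 passed both limits. LAMA2, the alpha chain of muscle basement membranes, had 31.1 and 83.8 in the otic pools, against 162 and 305 in the lateral pools. The groups did not overlap, and the log2 change was −2.12 ± 0.82 (adjusted p = 0.58), a 4.35-fold lower level. LAMA2 no longer passed both limits without otic replicate 1 (−1.41), lateral replicate 1 (−2.58), lateral replicate 2 (−1.66) or either trigeminal array without FGF2 (−2.12), and its 5 probe sets ran from −3.35 to 2.39, with a mean of −0.03. Lateral ectoderm, where LAMA2 was higher, also had the higher sums of mesenchyme and endothelial genes given above. The mesenchyme difference lay mostly in COL3A1, a collagen of mesenchyme, at 132 and 692 in the otic pools and 3056 and 4681 in the lateral pools, and without it the other 10 genes summed to 2434 and 4175 in the otic pools and 3978 and 4096 in the lateral pools. Of the 13 endothelial and blood genes 5 were lower at both limits in otic ectoderm, and of the 11 mesoderm and mesenchyme genes COL3A1 was lower and FOXC2, a forkhead factor of mesoderm, higher (log2 3.43). Their part in the LAMA2, FBN2 and SPARC values was not tested.

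LAMB3, a beta chain of the laminin that anchors epidermis, had 15.2 and 3.7 in the otic pools, against 23.2 and 30.9 in the lateral pools, a log2 change of −1.84 ± 0.67 (adjusted p = 0.56). Otic intensities were below the array medians of 29.3 and 31.7, and the gene no longer passed without otic replicate 2 (−0.82), lateral replicate 1 (−2.04), lateral replicate 2 (−1.63) or either trigeminal array without FGF2 (−1.84), nor in a fit of only the otic and lateral arrays (−1.84), nor with an offset of 32 added before the log (−0.52). The chains of laminin-111, the first laminin of the embryo, passed neither limit. LAMA1 gave 571 and 682 in the otic pools and 645 and 1079 in the lateral pools. LAMB1 gave 2369.5 and 4212 in the otic pools and 3277 and 4795 in the lateral pools. LAMC1, the gamma chain of most laminins, gave 7512 and 6769.7 in the otic pools and 6843 and 7640.2 in the lateral pools, a log2 difference of −0.02 (95% interval −0.90 to 0.86). Its sign turned to 0.06 without otic replicate 2 and without lateral replicate 2. The other gamma chain, LAMC3, gave 5.1 and 4.5 in the otic pools and 17.4 and 3.8 in the lateral pools, all below the array medians. In the trigeminal cultures LAMC3 was below them too, at 6.7 and 18.5 with FGF2 and 24.8 and 11.3 without FGF2.

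The linkers of the basement membrane included 0 genes of 4 past both limits. NID1, or nidogen, gave 984 and 1206 in the otic pools, against 1902 and 1709.8 in the lateral pools, so the groups did not overlap at a log2 difference of −0.73 ± 0.34 (adjusted p = 0.65). Perlecan (HSPG2) spread over 33.7 and 222 in the otic pools and 110.3 and 201 in the lateral pools. SPARC, a collagen-binding glycoprotein, was nearest to the limits at 1023 and 1889 in the otic pools, against 2458 and 3026 in the lateral pools. Its log2 difference of −0.97 ± 0.43 (adjusted p = 0.64) became −1.12 after quantile normalization, −1.16 after median centring and −1.41 without otic replicate 2, past both limits in each. Fibronectin (FN1), the main RGD ligand of the embryo, gave 12429.8 and 10922 in the otic pools and 10505 and 14070.2 in the lateral pools, a log2 difference of −0.06 (95% interval −1.12 to 1.00), whose sign turned to 0.03 and 0.15 without otic replicate 2 and without lateral replicate 2.

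FBN2, a fibrillin of the microfibrils that is prominent in embryos, had 302 and 544 in the otic pools, against 1149.9 and 1314 in the lateral pools. The groups were well apart, with a log2 change of −1.60 ± 0.46 (adjusted p = 0.42), a 3.03-fold lower level. All 6 probe sets were lower, by −1.60 to −0.62, and 5 of the 6 did not overlap, though 1 passed both limits. FBN2 did not pass them without otic replicate 1 (−1.18) or lateral replicate 2 (−1.51). The fibulins, which bind basement membranes and elastic fibres, split: FBLN1 gave 1162 and 2047 in the otic pools, against 2408 and 2518 in the lateral pools, and FBLN2 gave 1409 and 2131 in the otic pools, against 777 and 1371 in the lateral pools. Neither passed both limits (−0.68 ± 0.39 for FBLN1, 0.75 ± 0.44 for FBLN2).

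The 2 otic arrays differed from each other in these genes. Replicate 2 was brighter than replicate 1 for 36 of the 42 genes, by a median of 0.82 in log2, whereas 68.1% of all genes were brighter, by a median of 0.33. The replicates stood more than 2-fold apart for 17 of the 42 in otic ectoderm, 5 in lateral ectoderm, 4 with FGF2 and 7 without FGF2, while the shares of all genes were 24.9%, 21.1%, 13.5% and 18.4% in these groups. The marker sums of all 7 tissues were also higher in otic replicate 2 than in replicate 1, for example 4479 and 2007 for endoderm, 1594 and 691 for neural crest and 4867 and 2565 for mesoderm and mesenchyme, and their part in the result was not tested. Without otic replicate 2, 10 of the 42 genes were lower at both limits and 1 higher, against 5.32% lower and 3.43% higher of all genes. Without otic replicate 1, 1 was lower and 3 higher (2.27% and 5.83% of all genes), and without lateral replicate 2, 0 were lower (2.05% of all genes). Lateral replicate 1 and each trigeminal array without FGF2, left out in turn, gave 1 lower (2.35% and 2.68% of all genes).

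ITGA8 and TNC were higher with FGF2 and LAMA3 was lower. These 3 of 42 genes (7.14%) passed both limits, 2 higher and 1 lower. Over all genes 3.62% passed both limits, 2.14% higher and 1.48% lower. No gene on the array reached an adjusted p under 0.05 with limma, and 5 of the 42 (11.9%), against 3.92% of all genes, had an unadjusted p under 0.05. The median log2 difference of the 42 was 0.11, against 0.12 over all genes, and 20 of the 42 lay above the median of all genes. Both FGF2 arrays were above both arrays without FGF2 for 13 of the 42 and below them for 6, while the shares of all genes were 28.4% and 11.6%.

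TNC, or tenascin-C, a matrix glycoprotein that modulates adhesion to fibronectin, had 85.5 and 104 with FGF2, against 48.9 and 23.5 without FGF2. Its log2 change was 1.48 ± 0.54 (adjusted p = 0.88). ITGA8 had 35.9 and 30.6 with FGF2, against 16.9 and 8.6 in its absence, a log2 change of 1.46 ± 0.52 (adjusted p = 0.85), and the arrays without FGF2 were below their array medians. Without replicate 2 of the cultures lacking FGF2 the values were 0.95 for TNC and 0.97 for ITGA8, and without FGF2 replicate 1 or 2 they were 1.62 and 1.33 for TNC and 1.34 and 1.57 for ITGA8, no longer past both limits in each case. The mean of the probe sets gave 0.76 for TNC and 0.75 for ITGA8. Some markers of other tissues were also higher with FGF2 at both limits: TWIST1 and FOXC1 among 11 mesoderm and mesenchyme genes (log2 1.34 and 1.48), TAL1 among 13 endothelial and blood genes (1.31) and OLIG2 among 8 neural tube genes (1.35). The mesoderm and mesenchyme sums were 3018 and 2896 with FGF2, against 2947 and 1758 without FGF2, and those of endothelium and blood 626 and 698 with FGF2, against 572 and 446 without FGF2. The neural tube sums were 5943 and 5143 with FGF2, against 5931 and 9119.6 without FGF2. In log2, the list medians were 0.15 for mesoderm and mesenchyme, 0.53 for endothelium and blood and −0.18 for neural tube. That of all genes was 0.12. The part of these tissues in the TNC and ITGA8 values was not tested.

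LAMA3, the alpha chain of the epidermal laminin, had 1.4 and 0.7 with FGF2, against 4.5 and 12.8 in its absence, a log2 change of −2.68 ± 0.69 (adjusted p = 0.60). All of these intensities lay below the array medians, and with an offset of 32 the change was −0.29. The gene was among the 5 that were above the array median on no array.

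Of the integrins, ITGB3 again ran higher, at 1886 and 2065 with FGF2, against 1075 and 973 in the cultures without it. The arrays did not overlap, and the fold of 1.93 fell just short of the limit (log2 0.95 ± 0.39, adjusted p = 0.95). ITGB1 gave 4094 and 4485 with FGF2, against 2872 and 3151 without FGF2, a log2 difference of 0.51 ± 0.35. ITGA6 gave 861 and 815 with FGF2 and 781 and 736 without FGF2, and ITGAV 104 and 89.9 with FGF2 and 77.1 and 107 without FGF2. ITGA4 gave 836 and 1544 with FGF2, against 557 and 559 without FGF2, at 1.03 ± 0.92, but the mean of its probe sets was −0.36. ITGA3 gave 294 and 366 with FGF2 and 304 and 278 without FGF2, and ITGA9 85.3 and 97.2 with FGF2 and 94.1 and 158 without FGF2.

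The basement membrane genes included 1 at an unadjusted p under 0.05 besides LAMA3. NID1 gave 1078 and 895 with FGF2, against 1930.1 and 1722 without FGF2, a log2 difference of −0.89 ± 0.34 (adjusted p = 0.90) and a fold short of the limit, which it passed after quantile normalization (−1.11). Across the alternatives the NID1 difference ran from −1.11 to −0.20. Its 4 probe sets ran from −0.89 to 0.17, and those other than the brightest were each below the array median on at least 1 array. LAMC1 gave 6796 and 7988 with FGF2, against 5262 and 3454 without FGF2, and passed neither limit at 0.79 ± 0.37, though it passed both without replicate 1 of the cultures lacking FGF2 (1.09). LAMA1 gave 572 and 579.9 with FGF2, against 478 and 426 without FGF2. LAMB1 (2398 and 1961 with FGF2, 1830.4 and 2068 without FGF2), HSPG2 (255 and 182 with FGF2, 180.5 and 224 without FGF2) and SPARC (1506 and 1134 with FGF2, 1259 and 1599 without FGF2) overlapped. FN1 also overlapped, at 5592 and 5178 with FGF2 and 6132 and 3088 without FGF2. FBN2 gave 50.6 and 76.8 with FGF2, against 100.4 and 152 without FGF2, a log2 difference of −0.99 ± 0.46 (adjusted p = 0.99) that passed both limits after quantile normalization (−1.07) and median centring (−1.04).

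The widest differences in this gene family lay between the cultured trigeminal ectoderm, pooling those with and without FGF2, and the freshly dissected otic and lateral ectoderm. The comparison uses all 8 arrays, those of both comparisons above. Culture in collagen gel, stage and region of the ectoderm cannot be told apart in it. FBN2, LAMA2, FBLN1, FN1, FBLN2, ITGA7 and LAMA4 were lower and ITGA2 was higher, 8 of 42 genes (7 lower and 1 higher). Over all genes 9.64% passed both limits, 4.37% lower and 5.27% higher. Adjusted p-values under 0.05 were found for 0.838% of all genes (109) and for 1 of the 42, FBN2, and unadjusted ones under 0.05 for 13.5% of all genes and for 11 of the 42. The median log2 difference was −0.13 for the 42 and 0.021 for all genes, and the median distance from the median of all genes 0.72 and 0.33. All 4 cultured arrays were below all 4 fresh arrays for 5 of the 42 and above them for 1, while the shares of all genes were 4.94% and 5.01%.

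**Figure D3:**
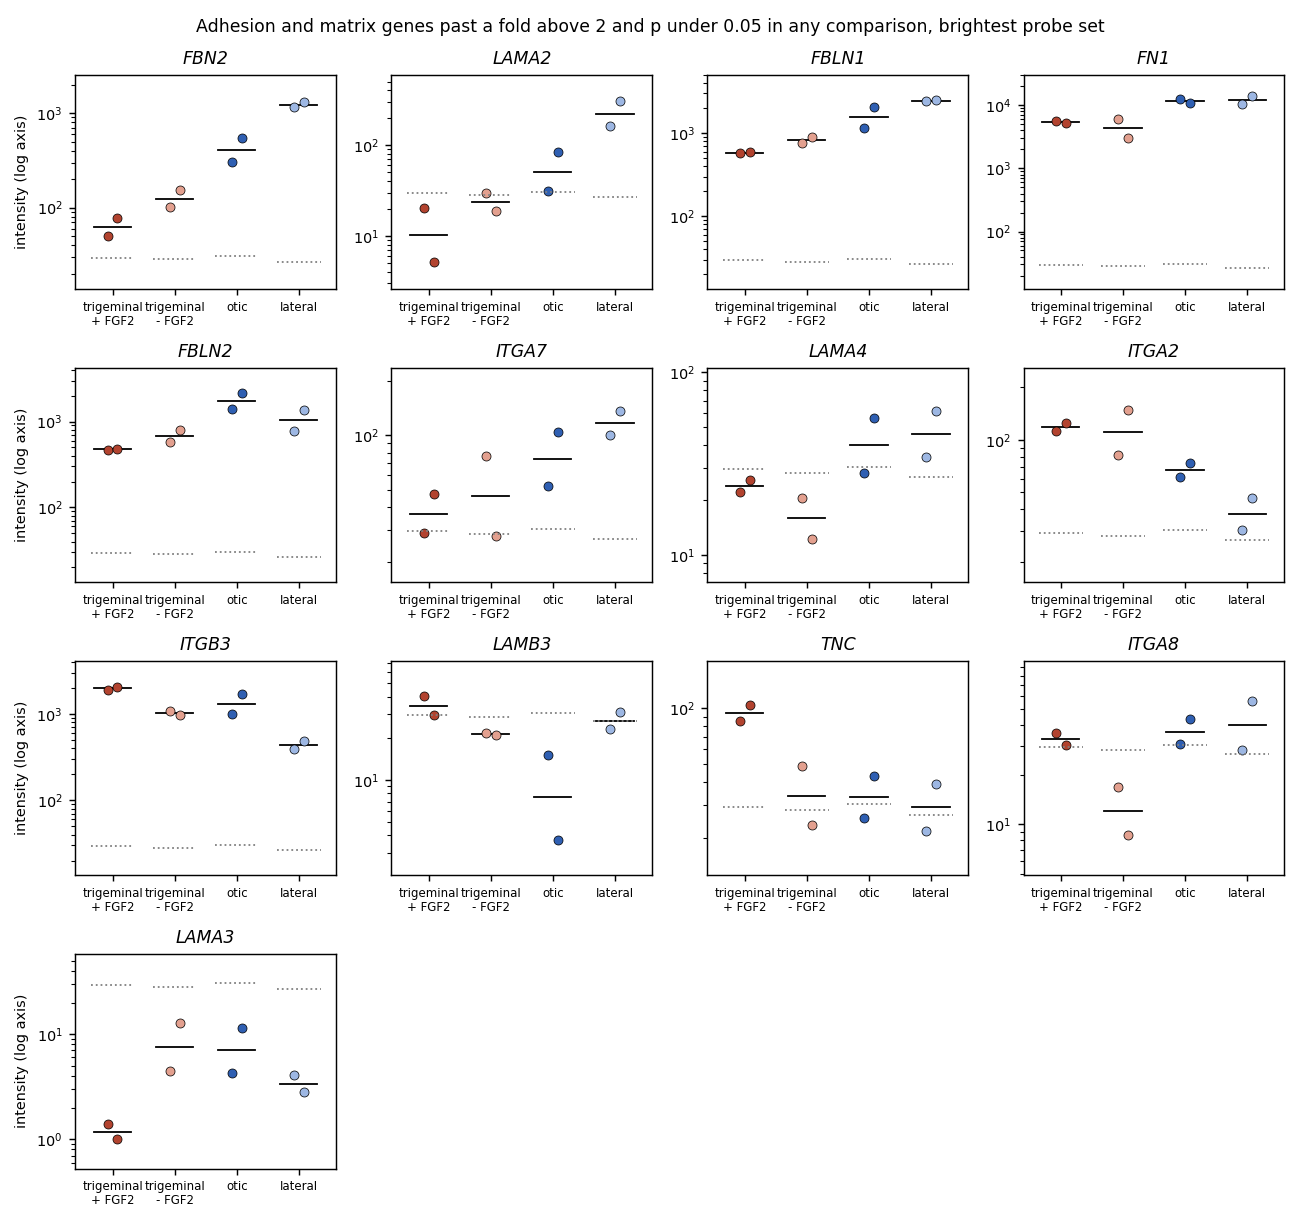
Intensity (log axis) on each array of the genes past both limits in at least 1 comparison, by group. Points are arrays (values under 1 drawn at 1), black bars the geometric mean of 2 arrays, and the dotted line the mean of the array medians of a group. FBN2 lies at 50.6 to 152 on the cultured arrays and at 302 to 1314 on the fresh ones.

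FBN2 fell furthest. It had 50.6 and 76.8 with FGF2 and 100.4 and 152 without FGF2, against 302 and 544 in the otic pools and 1149.9 and 1314 in the lateral pools. The log2 change was −3.01 ± 0.33 (adjusted p = 0.033), an 8.04-fold lower level in the cultured ectoderm. All 6 probe sets were lower at both limits without overlap, at −3.34 to −1.29. The −3.34 was that of a dim probe set, at 1.2 to 2.5 on the cultured arrays and above the array median on 1 array. Both limits were passed in every alternative run, between −3.22 and −2.61, and the adjusted p ranged from 0.00079 to 0.16, above 0.05 with any 1 array left out. The other fibrillins did not pass: FBN1 had a log2 difference of −0.08 and FBN3 of 0.50.

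**Figure D4:**
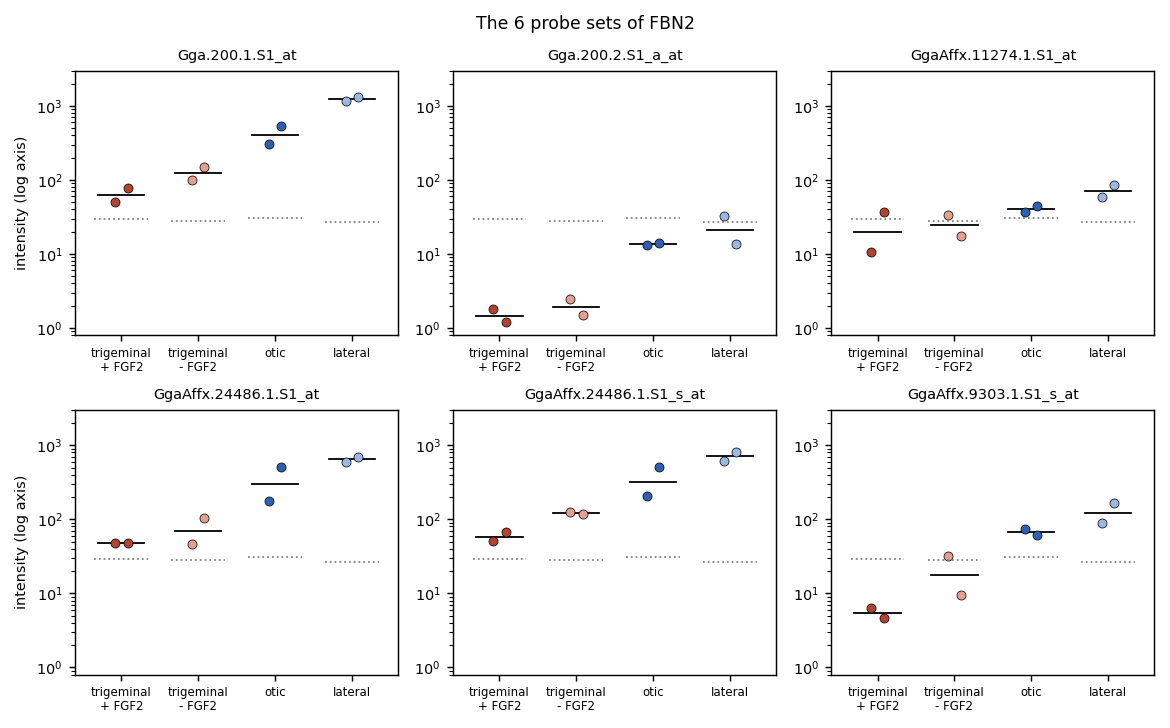
Intensity (log axis) of each of the 6 FBN2 probe sets on each array, by group. On each probe set the 4 cultured arrays lie below the 4 fresh arrays, with log2 changes of −3.34 to −1.29.

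Both bright fibulins were lower as well. FBLN1 had 578 and 589 with FGF2 and 759.5 and 885 without FGF2, against 1162 and 2047 in the otic pools and 2408 and 2518 in the lateral pools, a log2 change of −1.49 ± 0.28 (adjusted p = 0.092). FBLN2 had 468 and 484 with FGF2 and 571 and 790.2 without FGF2, against 1409 and 2131 in the otic pools and 777 and 1371 in the lateral pools, and the groups overlapped only between one array without FGF2 and one lateral array (−1.24 ± 0.31, adjusted p = 0.18). Fibronectin was lower in all cultured pools. FN1 had 5592 and 5178 with FGF2 and 6132 and 3088 without FGF2, against 12429.8 and 10922 in the otic pools and 10505 and 14070.2 in the lateral pools. Its log2 change was −1.30 ± 0.31 (adjusted p = 0.15), 5 of 8 probe sets passed both limits, and all 8 were lower, at −1.76 to −0.81. Of the 5, 1 was below the array median on every array, at 1.6 to 24.9. Those that did not pass were each below the array median on at least 1 array. FBLN1, FBLN2 and FN1 passed both limits in every alternative run.

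LAMA2 had 20.5 and 5.1 with FGF2 and 29.5 and 18.6 without FGF2, against 31.1 and 83.8 in the otic pools and 162 and 305 in the lateral pools. The cultured values lay near or below the array medians, and the log2 change of −2.78 ± 0.58 (adjusted p = 0.12) passed both limits with any 1 array left out but not as the mean of its 5 probe sets (−0.67). LAMA4, an alpha chain of endothelial basement membranes, gave 22.0 and 25.7 with FGF2 and 20.5 and 12.3 without FGF2, against 28.3 and 56.3 in the otic pools and 34.2 and 61.2 in the lateral pools (−1.14 ± 0.37, adjusted p = 0.29). Across the alternatives its change ran from −1.52 to −0.55. LAMA4 was above the array median on 3 of the 8 arrays, none of them cultured. It did not pass without otic replicate 2 (−0.89), lateral replicate 2 (−0.93), FGF2 replicate 1 (−1.08) or replicate 2 without FGF2 (−0.95). ITGA7 gave 28.7 and 47.3 with FGF2 and 77.2 and 27.9 without FGF2, against 52.2 and 104 in the otic pools and 99.7 and 136 in the lateral pools, with overlap (−1.16 ± 0.45, adjusted p = 0.37). It did not pass without otic replicate 2 (−0.91), lateral replicate 1 (−1.28), lateral replicate 2 (−1.05), FGF2 replicate 1 (−0.98) or replicate 2 without FGF2 (−0.80).

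Genes listed as markers of other tissues also differed in this comparison. Of 13 endothelial and blood genes, 9 were lower at both limits in the cultured ectoderm, as were 3 of 11 mesoderm and mesenchyme genes and 5 of 8 endoderm genes. CDH5, the cadherin of endothelium, gave 102 and 59.6 with FGF2 and 29.2 and 19.4 without FGF2, against 143 and 607 in the otic pools and 1114 and 1273 in the lateral pools. COL3A1 gave 634 and 311 with FGF2 and 553 and 81.8 without FGF2, against 132 and 692 in the otic pools and 3056 and 4681 in the lateral pools, and COL1A2, another fibrillar collagen, stayed between 957 and 1277 on the cultured arrays, against 822 to 1815 on the fresh ones. Neural crest and neural tube genes went the other way, with 3 of 6 and 4 of 8 higher, and the neural tube sums were 5143 to 9119.6 on the cultured arrays, against 390.2 to 2684 on the fresh ones. Much of the cultured sums came from PAX6 (1672 to 4169) and ZIC1 (1410.5 to 2994). SOX1, SOX3, OLIG2 and NKX6-2 did not pass both limits (log2 0.82, 0.33, 0.58 and 0.11), and SOX1 lay at 14.6 to 33.0 on the cultured arrays. HES5, which the paper counts as otic-enriched, was among the 4 higher, so the sums do not measure neural tissue alone. The part of these tissues in the lower FBN2, LAMA2, fibulin and fibronectin values was not tested.

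ITGA2, the alpha chain of a collagen receptor, was the 1 gene past both limits in the other direction. It had 112 and 125 with FGF2 and 82.3 and 148 without FGF2, against 61.4 and 73.2 in the otic pools and 30.4 and 46.4 in the lateral pools. Every cultured array was above every fresh array, and the log2 change was 1.19 ± 0.31 (adjusted p = 0.19), but 0.98, no longer past both limits, without replicate 2 of the cultures lacking FGF2. The other collagen-binding chains gave 35.1 and 16.2 with FGF2 and 25.0 and 36.4 without FGF2 for ITGA1, and 36.2 and 46.8 with FGF2 and 46.8 and 39.1 without FGF2 for ITGA11, and overlapped with the fresh tissues. ITGB3 was higher at an unadjusted p of 0.015 but not past the fold limit (0.91 ± 0.27), and so was not counted. Without otic replicate 2, 7 of the 42 genes were higher at both limits (6.96% of all genes), without otic replicate 1 or lateral replicate 1 each 3 (4.74% and 5.04%), and without lateral replicate 2, 2 (6.26%).

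Widely used receptor and laminin chains had smaller differences. ITGB1 differed by −0.15 ± 0.25 in log2 (95% interval −0.75 to 0.46), ITGAV by 0.05, ITGA3 by 0.05, NID1 by −0.07 and LAMC1 by −0.36 (95% interval −0.98 to 0.27). The intervals of ITGB1 and LAMC1 leave out a 2-fold difference. LAMB1 was lower at an unadjusted p of 0.039 and short of the fold limit (−0.78 ± 0.30), with 1830.4 to 2398 on the cultured arrays and 2369.5 to 4795 on the fresh ones. ITGA6 ran from 736 to 861 on the cultured arrays and from 335 to 911 on the fresh ones (0.75 ± 0.32, adjusted p = 0.42). ITGA8 was lower at an unadjusted p of 0.042 (−0.94 ± 0.37), a fold just short of the limit.

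Another 13 genes passed both limits in no comparison on their brightest probe set. They are the laminin chains LAMA5, LAMB2 and LAMB4, the linkers AGRN and NID2, the integrin chains ITGB4, ITGB5 and ITGB6, vitronectin (VTN), FBLN5, FBLN7, FBN1 and FBN3. Their log2 differences ran from −0.63 (LAMA5) to 0.78 (LAMB2) in otic over lateral ectoderm, from −0.63 (FBLN5) to 1.20 (ITGB6) with FGF2, and from −0.47 (ITGB5) to 1.39 (ITGB6) in cultured over fresh ectoderm. ITGB6, a receptor chain of epithelia, was dim throughout, at 1.1 to 17.0. ITGB5, another partner of alpha V, was bright on every array, at 1054 to 1838 on the cultured arrays and 1337 to 2360.1 on the fresh ones. Agrin (AGRN), which binds laminin, lay at 1089.6 to 1313 on the cultured arrays and 918 to 1647 on the fresh ones. Dimmer probe sets of ITGB4 (log2 1.56 in otic over lateral ectoderm) and LAMB2 (2.06 in cultured over fresh ectoderm) passed both limits. So did those of FBN1 (2.19 with FGF2, −1.38 in cultured over fresh ectoderm) and LAMB4. All of these were below the array median on at least 1 array.

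Set side by side, 2 genes passed both limits in more than 1 comparison, and the share of all genes that did so was not counted. FBN2 and LAMA2 were lower in otic than in lateral ectoderm, and lower again in cultured than in fresh ectoderm, so that lateral ectoderm had the highest level of each, otic ectoderm the next, and the trigeminal cultures the lowest. For both genes the neighbouring groups in that order did not overlap, except the cultures with and without FGF2 for LAMA2. These comparisons share arrays, and the order is a description. Of the 65 further probe sets of the 42 genes, 19 were above the array median on all 8 arrays, and the sign of the brightest probe set was found in 14 of the 19 for otic over lateral, 16 for FGF2 and 17 for cultured over fresh. The other 46 were dim on at least 1 array.

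Inside the cell, integrins act through a shared machinery of talin, kindlins, focal adhesion kinase and the proteins they recruit. Of 29 measured genes of this machinery, 1 was higher and 0 were lower in otic than in lateral ectoderm, where 4.86% and 2.64% of all genes were. That gene was PTK2, the focal adhesion kinase, with 1064 and 1315 in the otic pools, against 452 and 486 in the lateral pools, a log2 change of 1.34 ± 0.36 (adjusted p = 0.41). With FGF2, 0 of 29 passed in either direction, against 3.62% of all genes. In cultured over fresh ectoderm 0 were higher and 1 was lower, the related kinase PTK2B (−1.31 ± 0.36, adjusted p = 0.21). Of all genes 5.27% were higher and 4.37% lower there. The medians of the 29 were −0.03, 0.13 and −0.15 in the 3 comparisons, against 0.19, 0.12 and 0.021 for all genes.

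A further list held 29 other matrix ligands and receptors. In otic over lateral ectoderm 1 was higher and 2 were lower, where 4.86% and 2.64% of all genes were. VCAN, the proteoglycan versican, had 1448 and 1861 in the otic pools, against 191 and 385 in the lateral pools, a log2 change of 2.60 ± 0.49 (adjusted p = 0.24). TGFBI, an integrin ligand, had 58.3 and 134 in the otic pools, against 312 and 528 in the lateral pools (−2.20 ± 0.51, adjusted p = 0.33), and CD44, a hyaluronan receptor, was lower at 8.6 and 8.2 in the otic pools, against 18.7 and 19.9 in the lateral pools, all below the array medians. With FGF2, 0 of 29 passed, against 3.62% of all genes. In cultured over fresh ectoderm 6 were higher and 4 lower, where 5.27% and 4.37% of all genes were. CD44 was higher at 41.7 to 53.6 on the cultured arrays, against 8.2 to 19.9 on the fresh ones (1.87 ± 0.22, adjusted p = 0.041). EFEMP1 changed more, at 23.4 to 52.3 on the cultured arrays, against 2.0 to 17.1 on the fresh ones (3.09 ± 0.66, adjusted p = 0.13). EDIL3 was also among the 6 (1.17 ± 0.26). POSTN, or periostin, was lower at 19.4 to 71.5, against 93.9 to 618 on the fresh ones (−2.77 ± 0.57, adjusted p = 0.11). Not all genes of this list that passed are named.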

How the data were processed

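Otic, lateral and cultured trigeminal ectoderm of the chick was measured on Affymetrix arrays, 2 per group. The authors deposited 1 intensity per probe set and array on a linear scale. The steps of summarising probes, correcting background and scaling arrays, not given in the sources used here, could change any fold. Values were taken unchanged. The authors name limma for their own tests. Of 38535 probe sets in the table, 96 controls were left out, and 27168 of the other 38439 name 1 gene symbol, which covers 13009 genes. All 42 members are also named in the RefSeq gene table, used for names only.

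Intensities under 1 were set to 1 and log2 was taken, with no scaling between arrays. Tests used limma 3.58.1 (lmFit, then eBayes; R 4.3.3), in 1 model over all 8 arrays with a mean per group (4 residual degrees of freedom), two-sided, with Benjamini-Hochberg adjustment over all 38439 probe sets. A gene was counted on its brightest probe set, at a fold above 2 (the limit that the study names) and an unadjusted p under 0.05. Arrays carry no depth, and their number limits the precision. The procedure was tested on simulated data.

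Values on every array are given for each member past both limits, for ITGB1, ITGA6, ITGAV, FN1, LAMA1, LAMB1, LAMC1, NID1, HSPG2 and SPARC whatever their values, and for members of role groups of fewer than 4, with up to 4 genes per list of other adhesion genes. The marker, role and adhesion lists are from general knowledge, and the members and lists were chosen with earlier results of these data known. Alternatives were quantile normalization, median centring, the arrays of a comparison alone, the dimmest 40% of probe sets left out, a trend in the prior variance, an offset of 32, other limits, other uses of a gene's probe sets, the replicate number as a block, and each array left out, which assumes that the array remaining in its group varies as the others do. The count of members at an adjusted p under 0.05 was followed across these alternatives after the data were seen. Plots were made in matplotlib 3.10.9 (Python 3.11.15).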

Additional observations from a re-analysis of the deposited data

How the results depend on the processing

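Each array was left out in turn, and up to 16 alternatives were run for each of 39 fold changes, of which 32 had the same sign under every alternative. With 2 arrays per group, single arrays set most of the counts of genes past both limits. For the other alternatives the share of all genes past both limits was not counted, so the counts below have no background there. Where any probe set could count, a gene with more than 1 probe set had more ways to pass. In otic over lateral ectoderm the 1 gene higher became 4 when any probe set of a gene could count, 0 with the mean of the probe sets, and 1 to 3 with an array left out, while the 3 lower became 5 after quantile normalization and 0 to 10 with an array left out. With FGF2, the 2 higher became 5 with any probe set, 0 with an offset of 32 or the mean of the probe sets, and 0 to 3 with an array left out. The 1 lower became 3 after quantile normalization, 2 after median centring or at a fold above 1.5, 4 with any probe set, 0 with the offset or without dim probe sets, and 1 to 2 with an array left out. In cultured over fresh ectoderm the 1 higher became 3 with any probe set, 2 with the mean of the probe sets or at a fold above 1.5, 0 with the offset, and 1 to 7 with an array left out, and the 7 lower were 5 to 9 with an array left out. Genes at an adjusted p under 0.05, 1 in the main setting (FBN2), were 3 without dim probe sets (FBLN1, FBN2 and LAMA2), 6 with a trend in the prior variance, 4 with the offset, and 0 with any array left out. Over all probe sets, 198 were at an adjusted p under 0.05 in the main setting of cultured over fresh ectoderm. They were 811 without dim probe sets, 945 with the trend and 899 with the offset. The median of the 42 genes relative to all genes was −0.31 in otic over lateral ectoderm (−0.66 to −0.10 with an array left out). It was −0.01 with FGF2 (−0.01 to 0.06) and −0.15 in cultured over fresh ectoderm (−0.30 to −0.02). The values over all arrays lay within 0.40, the SD of this median between replicate arrays, and −0.66 lay outside it. That SD is one of single arrays, not of a comparison of group means. The cause of these changes was not tested.

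Replicate numbers did not pair the samples, since deviations from the group means of arrays with the same number correlated at −0.023 to 0.028. With the replicate block the counts of genes past both limits stayed at 1 and 3, 2 and 1, and 1 and 7 (higher and lower, in the 3 comparisons), and 0 of the 42 genes had an adjusted p under 0.05 in cultured over fresh ectoderm.

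The sign turned for 7 fold changes. In otic over lateral ectoderm they were FBLN1 (0.17 with the mean of the probe sets), ITGB1 (−0.09 with quantile normalization, −0.11 with median centring, −0.17 to 0.33 with an array left out, and −0.04 without lateral replicate 1), FN1 (0.17 with the mean of the probe sets, −0.27 to 0.15 with an array left out, and 0.03 without otic replicate 2) and LAMC1 (0.06 without otic replicate 2 or lateral replicate 2, and down to −0.10 with another array left out). With FGF2 they were ITGA4 (−0.36 with the mean of the probe sets) and FN1 (−0.19 to 0.80 with an array left out). In cultured over fresh ectoderm NID1 gave −0.14 to 0.01 with an array left out, and 0.00 without FGF2 replicate 2. Genes near or below the array medians, such as LAMA3, LAMB3 and ITGA8, lost their place past both limits with the offset of 32, which for LAMA3 left −0.29, for LAMB3 −0.52 and for ITGA8 0.55.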

Other observations

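Some genes have a second probe set that differs from the brightest one. The dimmer probe set of ITGA7 gave 14.1 and 18.4 in the otic pools, against 93.3 and 75.0 in the lateral pools, a log2 change of −2.38, whereas the brightest gave −0.66. A dim probe set of FBLN1 was higher in the otic pools than in the lateral ones (1.76) and higher with FGF2 than without FGF2 (2.58), whereas the brightest gave −0.68 and −0.49. The 2 probe sets of LAMB4 that moved furthest with FGF2 went opposite ways, 2.31 and −3.47. These probe sets were singled out after their values were seen.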
